A study of Mus musculus with 8 samples.

Results

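The 36 genes described here carry out glycolysis or respond to low oxygen in mice. They were taken by symbol from a list of glucose and lactate transporters, glycolytic enzymes, subunits and regulators of hypoxia-inducible factor (HIF) and HIF targets. The list was chosen with earlier results of these data known. All 36 were found among the 47643 named entries of the expression table, and all 36 were among the 15327 genes that passed the filter on low counts.

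The study deleted Mettl3, the catalytic subunit of the enzyme that writes N6-methyladenosine (m6A) into mRNA, in the mesenchymal stem cells (MSCs) of bone marrow. The RNA-seq data comprised 2 libraries of Mettl3fl/fl mice, which the labels call wild type (WT), and 2 of Prx1-Cre;Mettl3fl/fl mice (cKO), all labelled C57BL/6. The m6A data (MeRIP-Seq, in which an antibody against m6A enriches methylated RNA fragments) comprised 2 immunoprecipitates and 2 inputs of WT MSCs, summarised by the authors in 1 peak list. Cells were flushed from tibiae and femurs and every sample had spent 2 days in osteogenic medium with dexamethasone (100 nM), β-glycerophosphate (5 mM), ascorbic acid (50 µg/ml) and 10% serum, so that the WT cells carried this treatment too. Prx1-Cre acts in the limb mesenchyme and its descendants and leaves blood-derived cells of the marrow with an intact Mettl3. The ages of the mice for these cultures, and whether the libraries of a group came from separate mice, are not given in the sources used here, and the p-values therefore measure only the spread between these libraries.

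Glycolysis converts glucose to pyruvate in the cytosol. The preparatory steps spend ATP to make triose phosphates and the payoff steps return ATP and NADH, after which lactate dehydrogenase can regenerate NAD+ by turning pyruvate to lactate. At low oxygen, prolyl hydroxylases of the Egln family stop marking the HIF alpha subunits for degradation, and HIF then binds short elements with the core ACGTG or GCGTG and raises the transcription of most glycolytic genes. Osteoblasts and their precursors are known for making much lactate even when oxygen is present, and HIF signalling in them is known to couple bone formation to blood vessel growth.

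The promoters of the members were read first, because they show the element that the HIF-responsive members are known for. RefSeq promoter windows (build GRCm38.p6, from 250 bases before to 50 bases after each start) were matched to 33 of the 36 members. Slc2a3, Epas1 and Bnip3l were not matched. On either strand, ACGTG or GCGTG was present for 30 of the 33 (90.9%), beside 46.7% of 27025 genes with a window and 65.9% of 10800 genes that were also tested by RNA-seq. With ACGTG alone the numbers were 23 of 33 (69.7%), 21.8% and 28.4%. CACGTG reads as ACGTG on both strands and was counted on each. The mean GC content was 62.1% in the members' windows and 60.3% in those of the tested genes. Such a match describes letters in a window and not a bound site. Stretches before the start are shown for 5 of the members whose RNA fell and whose stretch of 80 bases held at least 2 ACGTG matches. Hif1a met the same rule and is not shown, and its fall (log2 fold change -0.46) was smaller than those of the 5 shown. Pfkfb3 and Pfkm also held 2 matches, and their RNA did not differ at an adjusted p below 0.05. In the stretches, ACGTG or its reverse complement CACGT is in capitals.
Ldha, plus strand, chr7:46845719-46845798: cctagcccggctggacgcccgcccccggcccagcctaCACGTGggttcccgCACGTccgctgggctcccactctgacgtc
Slc16a3, plus strand, chr11:120948987-120949066: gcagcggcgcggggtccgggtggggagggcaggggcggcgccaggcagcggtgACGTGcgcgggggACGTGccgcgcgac
Slc16a1, plus strand, chr3:104638427-104638506: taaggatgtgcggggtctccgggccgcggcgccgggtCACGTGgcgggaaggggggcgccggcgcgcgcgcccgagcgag
Bnip3, minus strand, chr7:138909572-138909651: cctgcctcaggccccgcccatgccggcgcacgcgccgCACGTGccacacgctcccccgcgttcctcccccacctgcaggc
Pgk1, plus strand, chrX:106186913-106186992: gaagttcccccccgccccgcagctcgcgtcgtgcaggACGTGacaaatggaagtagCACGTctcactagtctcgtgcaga
The Ldha stretch, ending 6 bases before the start, held 3 matches within 80 bases, a CACGTG counted on each strand and a CACGT. The Slc16a3 stretch held 2 separate ACGTG just before its start. In Slc16a1 and Bnip3 the 2 matches were the same CACGTG read on each strand. The window of Adm, the only member that rose, held 2 GCGTG cores, at 90 and 54 bases before the start, and no ACGTG. No core was found in the windows of Gpi1, Tpi1 and Eno2.

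The RNA-seq libraries held 23978099 to 34106693 estimated counts, and the 10 most abundant genes took 8.30% to 9.38% of them. The WT libraries differed from each other more than the cKO libraries did. The biological coefficient of variation was 12.3% within the WT pair and 1.90% within the cKO pair, and the cKO pair still differed by more than sampling noise (chi-square per degree of freedom 1.82, against 32.6 for the WT pair). The members shared this: 30 of 36 had the wider spread in WT. Mettl3 itself had 17.6 and 16.9 CPM (counts scaled to 1000000 per library) in WT and 17.5 and 16.3 in cKO (log2 fold change -0.03, edgeR adjusted p = 0.824). These counts cover the whole gene, while the deletion removes exons 2 and 3, so they do not check the genotype.

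Markers of several cell types moved with the genotype. TPM are values per length that sum to 1000000 in each library. Summed TPM of 9 macrophage markers, led by Lyz2, was 22299 and 27049 in WT and 31545 and 31793 in cKO. Of the 9, 3 were higher (Ptprc, C1qa and C1qb) and none lower, where 13.7% of all tested genes were higher and 16.8% lower. Lyz2 held 14418 and 20117 TPM of the sum in WT and 21566 and 21709 in cKO. Lyz2 did not pass (edgeR adjusted p = 0.342), and its CPM overlapped between the groups. The 12 mesenchymal stromal markers summed to 2101 and 1948 in WT and 1669 and 1667 in cKO (6 lower, 4 higher), so RNA of macrophage genes was present beside that of the labelled MSCs. The 7 chondrocyte markers fell from 1295 and 1305 to 33.5 and 32.1 (6 lower), and the 6 adipocyte markers went from 193 and 213 to 375 and 387 (5 higher, 1 lower). The 7 osteoblast markers summed to 6925 and 16422 in WT and 6991 and 6916 in cKO, with 5 of the 6 tested lower. Most of this sum was Spp1, with 6714 and 16163 TPM in WT and 6864 and 6784 in cKO. Spp1 was the tested osteoblast marker that did not pass (edgeR adjusted p = 0.131). The 6 endothelial markers reached 4.84 and 5.04 in WT and 12 and 11.5 in cKO (3 of 4 tested higher). This rise lay in Emcn (0.32 and 0.58 TPM in WT, 6.59 and 5.35 in cKO) and Kdr (0.56 and 0.40, against 2.41 and 2.16). Vwf, called higher from counts, had 3.61 and 3.71 TPM in WT and 2.66 and 3.57 in cKO. Pecam1, Cdh5 and Tek stayed at or below 0.25 TPM in every library. The 7 neutrophil markers reached 18.3 and 20.8 in WT and 5.92 and 3.87 in cKO (1 of 2 tested lower), with S100a9, Mpo and Ltf at 0 in every library, and the 6 erythroid markers stayed at or below 0.66 TPM in sum, with Hbb-bt at 0. The part of these differences in the results below was not tested, and in bulk samples fewer cells of a type and less RNA per cell cannot be told apart.

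Of the 36 members, 25 differed between cKO and WT at an adjusted p below 0.05 (edgeR's quasi-likelihood test, two-sided, with Benjamini-Hochberg adjustment over all genes tested), where 30.5% of all tested genes did. The difference was nearly always a fall: 24 members were lower in cKO, beside 16.8% of all genes, and 1 was higher, beside 13.7%. The median log2 fold change of the members was -0.41, against -0.0038 over all genes, and 30 of 36 members had a negative value, against 50.6% of all genes. Most falls were moderate, since only Slc16a1 and Slc16a3 fell to less than 50% of WT, and the median absolute log2 fold change was 0.45 (0.25 over all genes). The CPM of the groups did not overlap for 32 members, beside 68.9% of all tested genes. How many members passed depended on the replicates. Without cKO replicate 1, without cKO replicate 2 or with both summed into 1 sample, the same 14 members passed, in fits that called 12%, 11.8% and 12.5% of all genes. These were Slc16a1, Slc16a3, Hk2, Pfkl, Aldoc, Tpi1, Gapdh, Pgk1, Pgam1, Eno1, Ldha, Bnip3 and P4ha2, all lower, and Adm. The other 11 (Slc2a1, Pfkp, Aldoa, Pkm, Ldhb, Pdk1, Pfkfb4, Hif1a, Epas1, Ero1l and P4ha1) kept their sign and lost the call, with edgeR adjusted p of 0.0616 to 0.306 when a cKO library was left out. Without WT replicate 1 the number was 27 (Hk1 and Pfkfb3 in addition), and without WT replicate 2 it was 31 (Gpi1, Egln1, Egln3 and Car9 as well). Those fits called 55.8% and 50% of all genes and took the spread from the close cKO pair alone, with the lone WT library assumed to vary like it, so nothing was read from the calls they added.

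**Figure D1:**
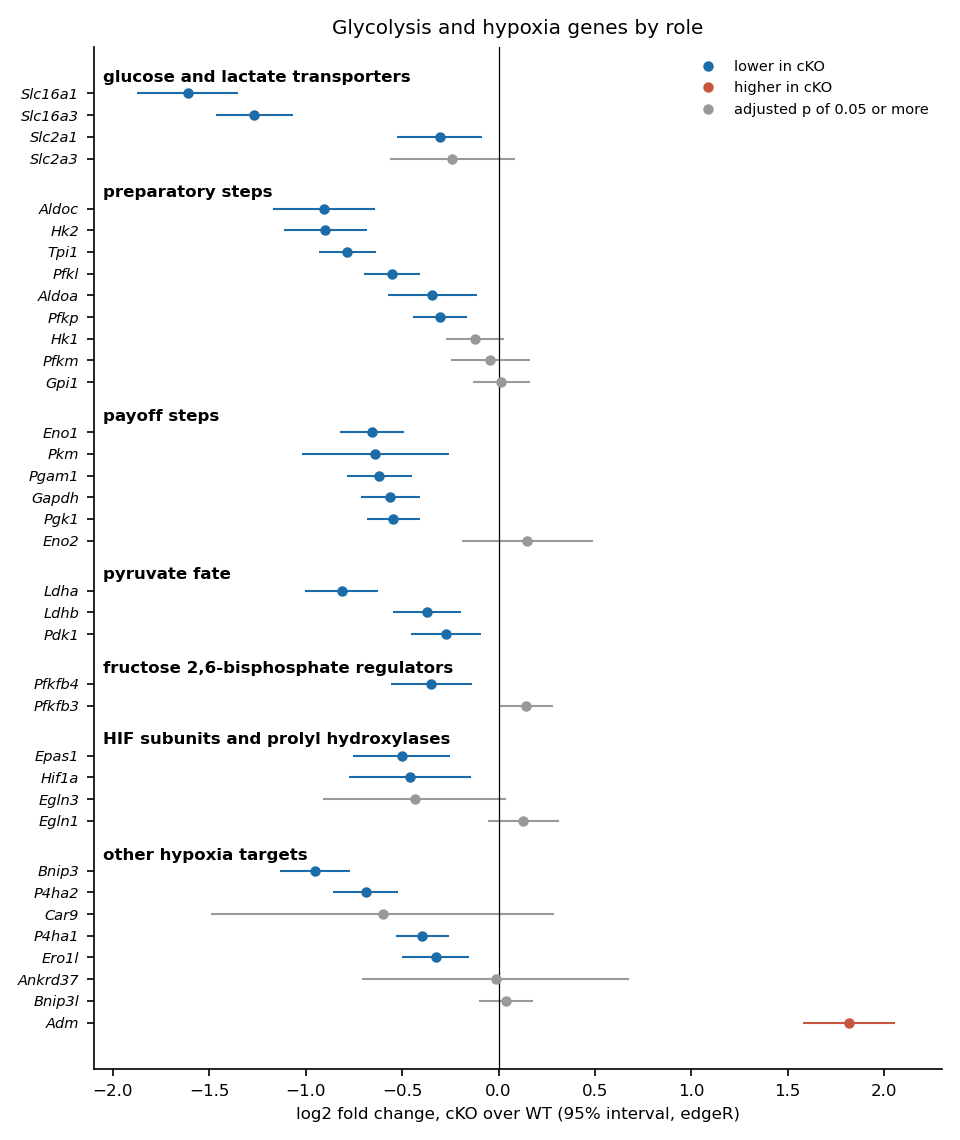
Log2 fold change of each of the 36 members, cKO over WT, with its 95% interval from edgeR, grouped by role (2 libraries per group). Blue points fell and the red point rose at an adjusted p below 0.05, and grey points did not pass. The blue points number 24 and the single red point, Adm, stands at 1.82.

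The largest falls were those of the lactate carriers. Slc16a1, which encodes the monocarboxylate transporter MCT1 (chr3:104638668-104658462, plus strand, GRCm38), had 26.6 and 23.3 CPM in WT and 8.21 and 8.10 in cKO. Every cKO library was far below every WT library, a log2 fold change of -1.61 ± 0.11 (SE, edgeR adjusted p = 0.000186) or 3.06-fold lower. Slc16a3, which encodes MCT4, the exporter of lactate from glycolytic cells (chr11:120948480-120960868, plus strand), had 73.2 and 79.1 CPM in WT and 29.8 and 33.3 in cKO. Its groups were as well separated, with a log2 fold change of -1.27 ± 0.08 (edgeR adjusted p = 0.000169). The glucose importers moved less. Slc2a1, encoding GLUT1, had 99.2 and 118 CPM in WT and 88.0 and 87.7 in cKO (log2 fold change -0.31 ± 0.09, edgeR adjusted p = 0.0464), without overlap but with a p that rose to 0.242 without cKO replicate 1 and to 0.245 without cKO replicate 2. Slc2a3, encoding GLUT3, had 9.32 and 9.06 CPM in WT and 7.06 and 8.44 in cKO and did not pass (edgeR adjusted p = 0.224). On the per-length scale Slc16a3 was the most abundant of the 4 transporters in WT 1 (55.3 TPM) and WT 2 (55.6), followed by Slc2a1 (43.5 and 50.6). In cKO this order was turned, with 40.4 and 40.5 TPM of Slc2a1 and 23.2 and 26.1 of Slc16a3. The order in WT holds only for the deposited TPM. By CPM, which are not divided by length, Slc2a1 stood above Slc16a3 in every library. The deposited gene length is also shorter for Slc2a1 (3506 bases) than for Slc16a3 (5318), so it would not give the WT order.

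**Figure D2:**
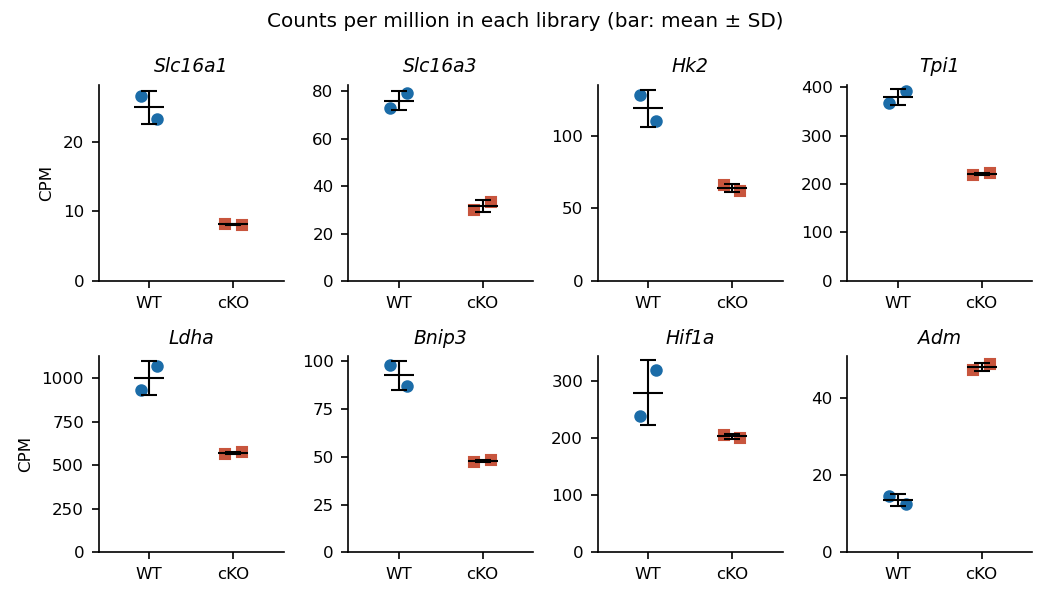
CPM in each library of 8 members, with WT as blue circles and cKO as red squares, and the mean ± SD of each group as black bars (n = 2). Each axis starts at 0 and has its own range. Adm lies higher in both cKO libraries, and the other 7 genes lie lower in both.

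Among the 9 genes of the preparatory steps, 6 were lower in cKO and 3 did not pass. Hk2, the inducible hexokinase that traps glucose in the cell, had 128 and 110 CPM in WT and 66.1 and 61.9 in cKO, a log2 fold change of -0.90 ± 0.09 (edgeR adjusted p = 0.000885). Both cKO values lay far below both WT values. Its housekeeping relative Hk1 had 150 and 159 CPM in WT and 139 and 145 in cKO and did not pass (log2 fold change -0.12 ± 0.06, 95% interval -0.27 to 0.03, edgeR adjusted p = 0.182). Gpi1, which isomerises glucose-6-phosphate, had 458 and 486 CPM in WT and 470 and 483 in cKO. Its groups overlapped, the interval of its log2 fold change ran from -0.13 to 0.16 around 0.01, and its sign was negative without WT replicate 1 (-0.02) or cKO replicate 2 (-0.0019).

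Phosphofructokinase commits the sugar to glycolysis, and its 3 genes did not move together. The liver type Pfkl had 180 and 189 CPM in WT and 125 and 127 in cKO (log2 fold change -0.55 ± 0.06, edgeR adjusted p = 0.00125), clearly apart. The platelet type Pfkp had 100 and 103 CPM in WT and 83.1 and 81.4 in cKO, a smaller fall without overlap (log2 fold change -0.30, edgeR adjusted p = 0.0110, and 0.169 and 0.212 without cKO replicate 1 and 2). The muscle type Pfkm had 32.9 and 35.6 CPM in WT and 31.8 and 34.6 in cKO, which overlapped (log2 fold change -0.04, edgeR adjusted p = 0.738), and on the TPM scale the sign was opposite (0.05 in limma). Of the aldolases, which split the doubly phosphorylated fructose, the scarce Aldoc had 14 and 13.2 CPM in WT and 7.06 and 7.44 in cKO (log2 fold change -0.91 ± 0.11, edgeR adjusted p = 0.00195). The abundant Aldoa had 853 and 1035 CPM in WT and 739 and 748 in cKO, with WT 2 well above the other libraries (log2 fold change -0.34 ± 0.10, edgeR adjusted p = 0.0377). Its log2 fold change was -0.47 without WT replicate 1 and -0.20 without WT replicate 2, and its adjusted p was 0.242 without cKO replicate 1 and 0.212 without cKO replicate 2. Tpi1, the triosephosphate isomerase, had 368 and 392 CPM in WT and 219 and 222 in cKO, and its fall was narrow in error (log2 fold change -0.78 ± 0.06, edgeR adjusted p = 0.000341).

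Of the 6 genes of the payoff steps, 5 were lower in cKO, by similar amounts. Gapdh, the dehydrogenase that makes NADH, had 1698 and 1844 CPM in WT and 1190 and 1209 in cKO (log2 fold change -0.56 ± 0.06, edgeR adjusted p = 0.00153). Pgk1, the kinase of the first ATP-forming step, had 600 and 619 CPM in WT and 412 and 423 in cKO (log2 fold change -0.55 ± 0.06, edgeR adjusted p = 0.00111). In both genes the WT libraries stood close together and well above the cKO libraries. Pgam1, a phosphoglycerate mutase, had 491 and 546 CPM in WT and 336 and 340 in cKO (log2 fold change -0.62 ± 0.07, edgeR adjusted p = 0.00151). Eno1, the main enolase, had 1010 and 1116 CPM in WT and 668 and 682 in cKO (log2 fold change -0.66 ± 0.07, edgeR adjusted p = 0.00109). These falls also came without overlap. Pkm, pyruvate kinase, had 2639 and 3804 CPM in WT and 2056 and 2081 in cKO. Its WT 2 value stood far above the other libraries, and its error was the widest of the 5 (log2 fold change -0.64 ± 0.16, edgeR adjusted p = 0.0257). Without cKO replicate 1 its adjusted p was 0.0911, without cKO replicate 2 it was 0.0797, and in DESeq2 it was 0.0612. Eno2, the neuronal enolase, had 7.54 and 6.33 CPM in WT and 7.80 and 7.62 in cKO and did not pass (log2 fold change 0.15, edgeR adjusted p = 0.469).

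For pyruvate, all 3 genes were lower, of which Ldhb and Pdk1 lost the call when either cKO library was left out. Ldha, the lactate dehydrogenase subunit that favours lactate formation (chr7:46841475-46855627, plus strand), had 932 and 1072 CPM in WT and 566 and 574 in cKO (log2 fold change -0.81 ± 0.08, edgeR adjusted p = 0.000825). Both cKO libraries were far below WT. Ldhb, the heart-type subunit, went from 52.6 and 55.0 to 43.1 and 40.1 CPM (log2 fold change -0.37 ± 0.07, edgeR adjusted p = 0.0116, and 0.0854 and 0.191 without cKO replicate 1 and 2). Pdk1, a kinase that keeps pyruvate out of the mitochondrial dehydrogenase, went from 53.9 and 48.9 to 42.3 and 42.9 CPM (log2 fold change -0.27 ± 0.08, edgeR adjusted p = 0.0381, and 0.306 and 0.272 in those fits). Pfkfb3 and Pfkfb4 make the sugar bisphosphate that activates phosphofructokinase, and they differed in sign. Pfkfb4 had 20.4 CPM in both WT libraries and 15.6 and 16.4 in cKO (log2 fold change -0.35 ± 0.09, edgeR adjusted p = 0.0274, and 0.299 and 0.203 in those fits). Pfkfb3 had 101 and 104 CPM in WT and 114 and 113 in cKO, without overlap, and did not pass (log2 fold change 0.14 ± 0.06, 95% interval 0.01 to 0.28, edgeR adjusted p = 0.107).

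Adding the TPM of the members of each step, 10 of the 11 steps from hexokinase to lactate dehydrogenase were lower in both cKO libraries than in both WT libraries. The exception was glucose-6-phosphate isomerase, at 329 and 362 TPM in WT and 350 and 364 in cKO. For scale, the CPM of the groups did not overlap, in either direction, for 68.9% of all tested genes. That share was not worked out for summed TPM. The ratio of the cKO to the WT mean was 0.840 for hexokinase, 0.894 for phosphofructokinase and 0.834 for aldolase, and from triosephosphate isomerase onward it lay between 0.617 and 0.734. The lowest ratios were those of triosephosphate isomerase (0.617) and lactate dehydrogenase (0.625, from 994 and 1100 TPM to 651 and 658). In sum, the 17 enzymes from hexokinase to lactate dehydrogenase took 0.809% and 0.925% of all TPM in WT and 0.621% and 0.633% in cKO. With 2 libraries per group an exact permutation test cannot go below p = 0.33, so these sums carry no further test. Hk3, the hexokinase of myeloid cells and not a member, had 66.3 and 45.1 TPM in WT and 46.2 and 45.0 in cKO (edgeR adjusted p = 0.107), beside 50.0 to 53.7 TPM of Hk1, so the hexokinase sum given here leaves out another abundant gene.

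**Figure D3:**
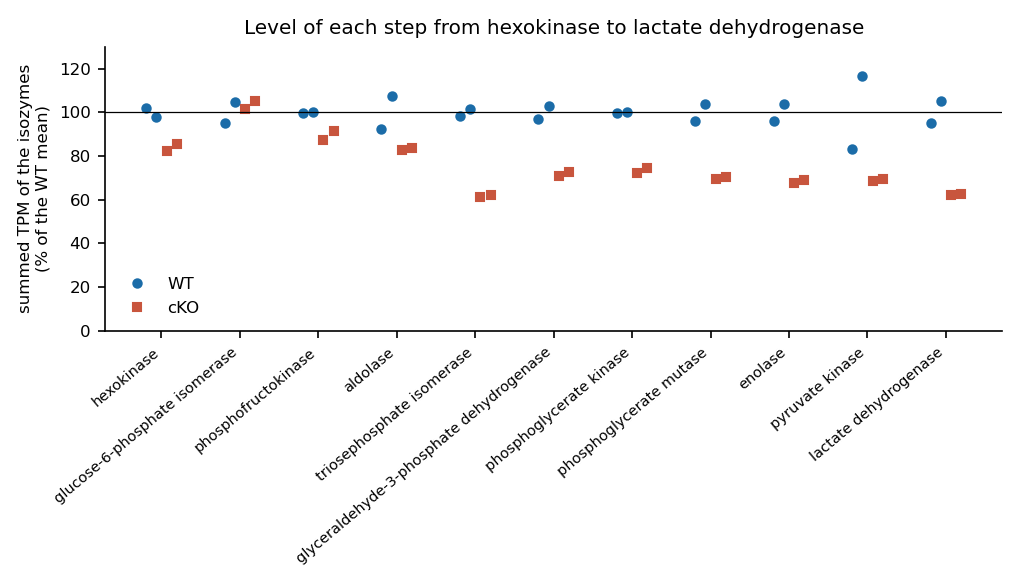
Summed TPM of the member isozymes of each of 11 steps, in pathway order, as a percentage of the WT mean, with each library as a point (WT blue circles, cKO red squares). The cKO points lie below both WT points at every step except glucose-6-phosphate isomerase.

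The shares of isozymes within a family differed between the groups for several families. Hk1 made up 62.0% and 66.6% of the summed TPM of Hk1 and Hk2 in WT and 74.3% and 76.7% in cKO. Bnip3l made up 46.0% and 53.3% of the BNIP3 pair in WT and 66.3% and 62.7% in cKO, the largest shift of the 12 families compared (14.9 percentage points). Pfkfb3 made up 72.5% and 76.9% of its pair in WT and 83.6% and 80.8% in cKO. The lactate dehydrogenase share of Ldha went from 93.1% and 93.7% to 90.9% and 91.5%. None of these shares overlapped between the groups, and each had an exact two-sided permutation p of 0.33, the smallest that 2 against 2 allows. The shares of Hif1a, Slc2a1 and P4ha1 in their pairs overlapped between the groups. From CPM in place of TPM, the shares of P4ha1 did not overlap (54.9% and 58.1% in WT, 61.7% and 61.1% in cKO).

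**Figure D4:**
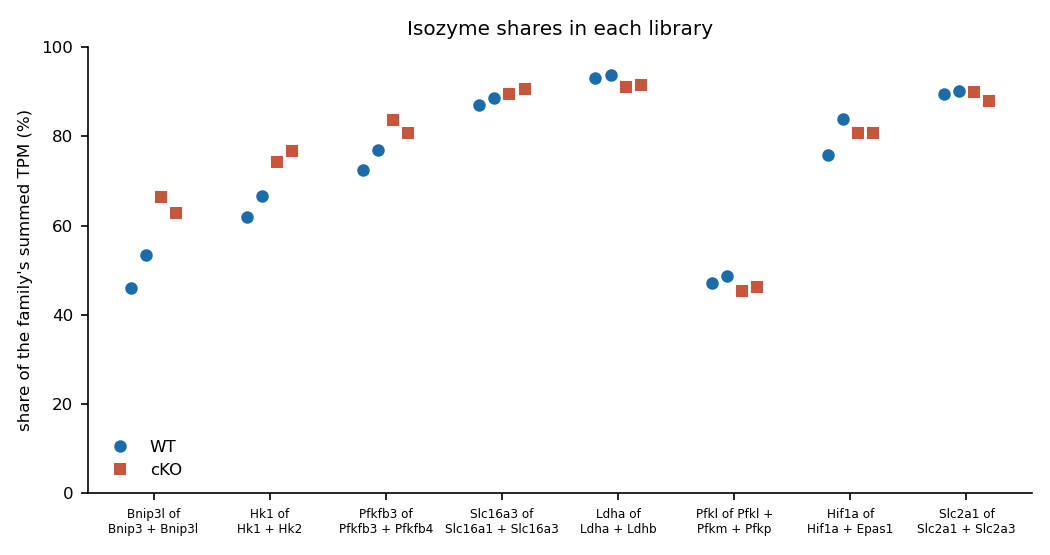
Share of 1 isozyme in the summed TPM of its family, in percent, in each WT (blue circles) and cKO (red squares) library. Bnip3l, Hk1 and Pfkfb3 take a larger share in both cKO libraries, and the shares of Hif1a and Slc2a1 overlap between the groups.

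The HIF alpha subunits themselves were lower. Hif1a, the subunit that drives glycolytic genes (chr12:73901375-73947530, plus strand), had 238 and 319 CPM in WT and 205 and 200 in cKO (log2 fold change -0.46 ± 0.13, edgeR adjusted p = 0.0408). The WT libraries were farther apart than the nearer of them was from cKO, and the adjusted p was 0.129 without cKO replicate 1 and 0.161 without cKO replicate 2. Epas1, encoding HIF-2 alpha, had 87.9 and 71.5 CPM in WT and 57.2 and 55.4 in cKO (log2 fold change -0.50 ± 0.10, edgeR adjusted p = 0.0142), with 0.0616 and 0.0852 in the same fits. Of the prolyl hydroxylases, Egln1, the main oxygen sensor, had 60.3 and 67.9 CPM in WT and 69.3 and 70.6 in cKO (log2 fold change 0.13 ± 0.08, edgeR adjusted p = 0.252). Egln3, itself a HIF target, had 4.05 and 3.50 CPM in WT and 3.01 and 2.60 in cKO (log2 fold change -0.43, edgeR adjusted p = 0.146). Neither passed, although the values did not overlap. These are RNA levels, and HIF activity is set mainly by protein stability.

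Of the 8 other hypoxia targets, 4 were lower, 1 was higher and 3 did not pass. Bnip3, a mediator of mitophagy (chr7:138890836-138909519, minus strand), had 98.0 and 87.4 CPM in WT and 47.6 and 48.3 in cKO (log2 fold change -0.95 ± 0.08, edgeR adjusted p = 0.000366). Its relative Bnip3l had 103 and 107 CPM in WT and 108 in both cKO libraries and did not pass (log2 fold change 0.04 ± 0.06, 95% interval -0.10 to 0.18, edgeR adjusted p = 0.657). Per length, Bnip3 and Bnip3l had 113 and 95.7 TPM in WT 1 and 91.1 and 104 in WT 2, against 52.6 and 104 in cKO 1 and 60.1 and 101 in cKO 2. The collagen prolyl hydroxylases P4ha1 and P4ha2, which stabilise the collagen helix, both fell. P4ha2 had 194 and 176 CPM in WT and 114 and 115 in cKO (log2 fold change -0.69 ± 0.07, edgeR adjusted p = 0.000956), and P4ha1 had 236 and 243 in WT and 183 and 181 in cKO (log2 fold change -0.39 ± 0.06, edgeR adjusted p = 0.00390, and 0.0920 and 0.109 without cKO replicate 1 and 2). Ero1l, an oxidase that helps proteins fold in the endoplasmic reticulum, went from 79.4 and 72 to 61.0 and 59.9 CPM (log2 fold change -0.33 ± 0.07, edgeR adjusted p = 0.0176, and 0.165 and 0.202 in those fits).

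Adm ran opposite to all other members that passed. It encodes adrenomedullin, a peptide that widens blood vessels (chr7:110627661-110629820, plus strand), and had 14.7 and 12.5 CPM in WT and 47.3 and 48.7 in cKO. Its groups were far apart, a 3.52-fold rise (log2 fold change 1.82 ± 0.10, edgeR adjusted p = 8.37e-05). Car9, a surface carbonic anhydrase, was scarce, with 113 and 48 counts in WT and 46 and 47 in cKO. The difference rested on WT 1 and did not pass (log2 fold change -0.60, 95% interval -1.49 to 0.29, edgeR adjusted p = 0.266), its sign was opposite on the TPM scale (0.22 in limma), and without WT replicate 2 it was -1.01. Ankrd37 had 38 to 46 counts in every library, and a difference was not detectable at this depth (95% interval -0.71 to 0.68).

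Genes of the same pathways outside the list were counted for comparison. Of 47 other HIF pathway and hypoxia genes, 46 were tested, of which 29 were lower in cKO, 6 higher and 11 did not pass, with a median log2 fold change of -0.60. The called share was 76.1%, beside 30.5% of all genes. All lists of this paragraph were chosen with earlier results of these data known, so their shares are descriptions and not independent evidence. The largest changes were those of Ndufa4l2 (-3.68) and Cox4i2 (-3.42), which encode hypoxia-induced parts of the respiratory chain, Bhlhe40 (-2.29), a repressor of transcription, and Vegfa (-2.13), the vascular growth factor. Of 41 other genes of glycolysis, gluconeogenesis and pyruvate use, 30 were tested, 7 were lower, 2 were higher and 21 did not pass (median -0.21), a called share of 30%, at the background of 30.5%. Their largest changes were in Pgam2 (-1.63), the muscle mutase, Slc2a4 (-1.42), the insulin-regulated glucose transporter, Slc2a6 (0.84), a glucose transporter of myeloid cells, and Pdk4 (0.61), a pyruvate dehydrogenase kinase induced on fasting. Of the 7 genes of the pentose phosphate pathway, which branches off at glucose-6-phosphate, Taldo1 was lower (-0.45) and 6 did not pass.

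Some members share sequence or position with other genes. The processed pseudogene Pgam1-ps2 held 1388 to 2533 counts and could take reads of Pgam1, and its own log2 fold change was -0.23 (edgeR adjusted p = 0.0984). Fractional counts, the mark of reads divided between genes, occurred in 9 members: Slc2a3, Gpi1, Pfkp, Gapdh, Pgk1, Pgam1, Eno1, Pkm and Hif1a. A gene with at least 20 counts overlapped on the opposite strand in 6 members, namely Gpi1 (Gm26762), Pfkm (Senp1), Pfkp (Pitrm1), Tpi1 (Spsb2), Gapdh (Iffo1) and Ankrd37 (Ufsp2). How the authors' counting used strand is not given, so reads from such a pair cannot be told apart. Ufsp2 held 766 to 1343 counts, beside 38 to 46 of Ankrd37, and Gm26762 held 15 to 24.

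The m6A peaks show which members carried the mark in WT cells. Peak summits were placed on mm9 and GENCODE vM1 gene models, and 14 of 36 members (38.9%) held at least 1. The share was 40.1% of 14118 tested genes found in that annotation and 40.6% of those at or above the members' median WT level of 54.0 TPM, so that the members' share lay near the background. By role, all 4 transporters had a peak, as did 5 of the 9 preparatory genes (Hk1, Hk2, Gpi1, Pfkl and Aldoa), 1 of the 6 payoff genes (Pkm), 1 of 3 for pyruvate (Pdk1), 1 of 2 phosphofructokinase regulators (Pfkfb4), 1 of 4 HIF regulators (Egln1) and 1 of 8 other targets (Adm). Among the transporters, the peaks of Slc2a3 (−log10 q 7.10) and Slc16a1 (6.63 and 5.54) lay below the median of all peaks (14.2). No peak was listed in Hif1a, Epas1, Ldha, Tpi1, Gapdh, Pgk1, Pgam1 or Eno1. The depth of these samples, which limits the peaks that can be called, is unknown.

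The members held 20 peaks of the 10160 in the list, 8 with the summit in coding sequence (CDS), 8 in the 3′UTR, 3 in the 5′UTR and 1, in Aldoa, in an intron. Their median fold enrichment was 3.16 (4.03 over all peaks) and their median −log10 q-value 17 (14.2 over all peaks). The strongest by q-value lay in the 3′UTR of Slc2a1, 396 nt after the last coding base (−log10 q 34.2, fold enrichment 4.52, pileup 112 fragments, rank 757), where the noncoding gene model Gm12868 also lies. Slc16a3 had peaks at -792 and -47 nt from the last coding base (negative values lie before it) (−log10 q 26.1 and 23.2), and Adm had 1 at 9 nt after it (−log10 q 24.8, fold enrichment 5.77). The summit of Hk2 lay at -2 nt, that of Slc2a3 at -48 nt and that of Gpi1 at -24 nt. The 5′UTR peak of Hk1 had the highest fold enrichment of the members, 8.49, with a pileup of 29. The weakest was the 5′UTR peak of Slc16a1, with a pileup of 7 (−log10 q 5.54).

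The consensus of the methylated site contains GGAC, in which the A carries the mark. For the transporters, all of which had a peak, and for Adm, the member that rose, 30 bases around the GGAC nearest the summit are shown on the transcript strand, with GGAC in capitals (mm9). The weak 5′UTR peak of Slc16a1 also held GGAC and is not shown.
Slc2a1, plus strand, chr4:118809426-118809455: aatctgtagggctGGACctatggccaagga
Slc2a3, minus strand, chr6:122680038-122680067: gcaggactttcgaGGACattgcccgggcct
Slc16a1 CDS peak, plus strand, chr3:104459521-104459550: gggaaggaaaagaGGACgaggccagcaccg
Slc16a3 upstream peak, plus strand, chr11:120817911-120817940: caggtaggcggagGGACtgagccccgcgga
Slc16a3 downstream peak, plus strand, chr11:120819349-120819378: tggacgtgggagtGGACtcgagggaggtgg
Adm, plus strand, chr7:117772746-117772775: ttcgcaccggggcGGACtgagacaatcctg
The GGAC lay 5 nt from the summit in Slc2a1 and in the upstream peak of Slc16a3, 16 nt in the CDS peak of Slc16a1, 34 nt in the downstream peak of Slc16a3, 54 nt in Slc2a3 and 71 nt in Adm. Whether these adenosines were the methylated ones was not measured. Pkm, Pdk1 and the intronic peak of Aldoa held no GGAC.

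**Figure D5:**
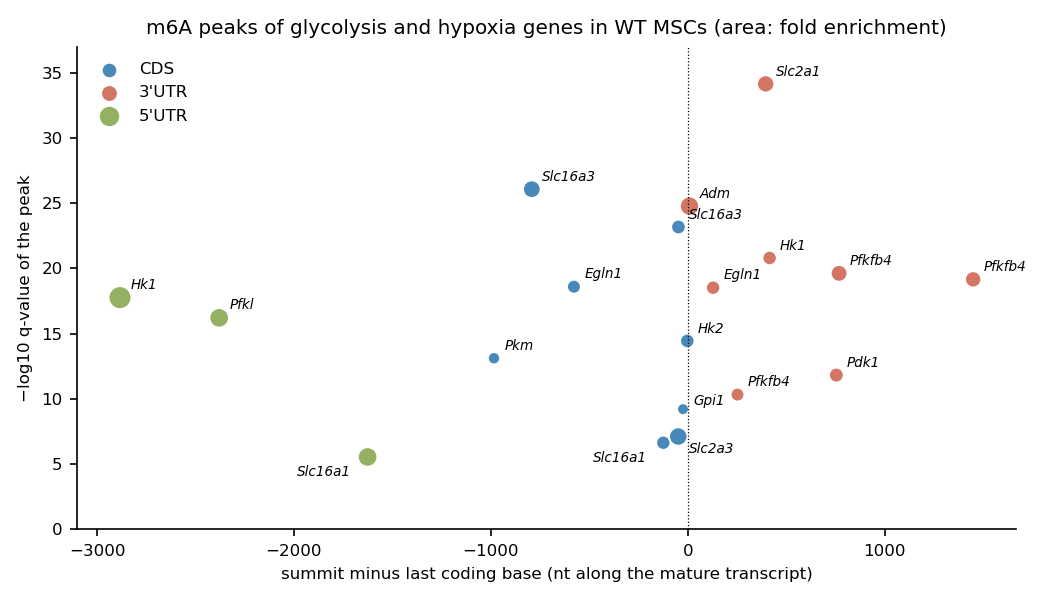
The 19 exonic m6A peaks of members in WT MSCs, by the distance of the summit from the last coding base along the mature transcript (nt, negative before it) and the −log10 q-value, with area in proportion to fold enrichment and colour for the part of the transcript. Slc2a1 stands highest at 34.2, and Adm, Hk2, Gpi1, Slc16a3 and Slc2a3 have summits within 50 nt of the last coding base.

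Members with and without a peak were set side by side on their RNA change. The 14 members with a peak had a median log2 fold change of -0.33, with 9 lower and 1 higher in cKO, and their values ran from -1.61 in Slc16a1 to 1.82 in Adm. The 22 without a peak had a median of -0.48, with 15 lower and none higher. The members with the largest fall and the largest rise both carried a peak, while Gapdh, Pgk1, Pgam1, Eno1, Ldha and Tpi1 fell without one. Both peaks of Slc16a1 were weak, with −log10 q of 6.63 (CDS) and 5.54 (5′UTR), below the median of 14.2 over all peaks. By promoter, the 23 members with ACGTG had a median of -0.55 (16 lower, none higher) and the 10 matched members without it -0.33 (7 lower, 1 higher). These medians describe small groups and were not tested.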

How the data were processed

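Groups and replicate numbers came from the sample labels. The RNA-seq data covered 2 WT and 2 cKO libraries, and the MeRIP-Seq data 2 immunoprecipitates and 2 inputs. The authors mapped RNA-seq reads with HISAT2 2.0.4 (mm10 in the submitters' processing notes) and deposited unnormalized estimated counts, with fractions in 4035 to 4545 genes of a library. How reads were counted is not given in the sources used here. The authors also deposited a column headed FPKM that sums to 1000000 in each library, which is FPKM rescaled to TPM. For m6A, the deposited list (MACS2 layout, mm9) gives for each peak a pileup signal, a fold enrichment (a ratio to background) and −log10 values of p and q. Whether samples were pooled is not stated. Gene and peak lengths in the deposited files were used as given.

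Entries without a gene name (89 of 47732, 0.110% to 0.125% of counts) were left out. Estimated counts were rounded, filtered with filterByExpr, scaled by TMM (factors 0.987 to 1.01) and tested two-sided by the quasi-likelihood method of edgeR 4.0.16 without a block. P-values were adjusted after Benjamini and Hochberg over 15327 genes. The procedure was also run on simulated counts that gave all libraries the same spread. The real WT and cKO pairs differed in spread, so that run does not check the calls made here. CPM are TMM-scaled. Standard errors came from the fold change and its F statistic. The members with an adjusted p below 0.05 and an absolute log2 fold change of at least 0.5, and the most abundant of each isozyme family, were given in full. From each list of other genes, the 4 called genes with the largest change were named, and copies or neighbours of members and Hk3 were named after their values were seen. The members and all lists were chosen with earlier results of these data known. Peaks were assigned by summit with Python 3.11.15, with CDS taken before UTRs, and exons before introns. Alternatives were DESeq2 1.42.0, limma 3.58.1 on log2(TPM + 0.1), a linear model on log2(TPM + 1), other scalings and filters, and libraries left out.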

Additional observations from a re-analysis of the deposited data

How the results depend on the processing

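All 25 members that passed kept their direction under each alternative for the RNA-seq fit, and their calls were kept with median-of-ratios size factors and without the filter on low counts. Calls depended on how the spread was estimated. Limma on log2(TPM + 0.1) called 2177 genes, among them 12 members (11 lower). An ordinary linear model on log2(TPM + 1) called 118 genes and 0 members, higher or lower (0 and 0), although 18 members had an unadjusted p below 0.05. With the cKO libraries summed, 2012 genes and 14 members (13 lower) were called, and with an unadjusted p below 0.05 and at least 2-fold, 1611 genes and 3 members (2 lower). DESeq2 called 3642 genes and 22 members, losing Pkm, Pdk1 and Pfkfb4. Leaving out 1 library each gave 1867 to 8750 genes, 14 to 31 members, 13 to 27 lower, 1 to 4 higher and a median of the members of -0.45 to -0.36. That median was -0.28 in limma and -0.26 in the linear model, where the median of all genes was 0.0993 and 0.0913.

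The sign turned for 4 members that had not passed. Pfkm was 0.0511 in limma, 0.0486 in the linear model and -0.10 to 0.0186 with a library left out, Car9 was 0.22 and 0.15, Ankrd37 was 0.0382 and 0.0314, and -0.23 to 0.20 with a library left out, and Gpi1 lay between -0.0213 and 0.0565. From CPM in place of TPM, the differences in isozyme share kept their sign, at -5.45 percentage points for Pfkl, 0.472 for Aldoa, -0.478 for Eno1, -1.70 for Ldha, 4.11 for Slc16a3 and 4.20 for Pfkfb3. With peaks above the median q-value only, 8 members had one (22.2%, beside 24.3% of tested genes).

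With the replicate number as a block, 4881 genes and 25 members (24 lower, 1 higher) were called, with a median of -0.41, and no call of a member changed. Same-numbered libraries did not deviate together (r = 0.03 over 15327 genes, which are not independent replicates), so the numbers were not taken as pairs. The 2 libraries per group limit every p-value, and the 1 peak list has no replicates and unknown depth.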

Other observations

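The members span 3 orders of magnitude in level, from a mean of 2.01 TPM in WT (Car9) to 2018 TPM (Gapdh). Below 5 TPM in every library were Car9, Egln3 and Ankrd37, none of which passed.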
